A study of Mus musculus with 12 samples.

Results

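Heat shock chaperone genes and the cold-induced gene Cirbp were followed through each of 12 mouse lung arrays. The set holds 10 genes. Of these, 9 encode chaperones or their partners, namely Hspa1a, Hspa1b, Hsph1, Dnajb1, Bag3, Chordc1, Stip1, Hspe1 and Hspd1, and the remaining gene is Cirbp. They were chosen by their measured levels, which differed strongly between arrays of the same group, so that spread is described here and not tested. All 10 were among the 12921 genes tested, and 15 of the 45037 non-control probe sets on the arrays carried the symbol of exactly 1 of them. Each gene is represented by the probe set with the highest mean over the 12 arrays. A level is the deposited log2 value, so a difference of 1 is a doubling of the measured signal, and a level of 1 gene is not set against that of another.

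Total RNA came from whole lungs of mice aged 8 to 12 weeks, all housed at 25 to 27 °C. The rhPBEF group received recombinant human PBEF, the secreted form of the NAD-synthesis enzyme encoded by Nampt, into the trachea, at 20 µg for each mouse in water given at 1.5 µl per gram. Mice of the ventilation group were mechanically ventilated over 4 hours with breaths of 30 ml per kg, a size known to injure the lung. A combined group received both rhPBEF and ventilation, and control mice received phosphate-buffered saline. No group is described as given the water alone, so rhPBEF cannot be told apart from its vehicle. Each group had 3 arrays, numbered replicate 1 to 3. The labels give neither the time from instillation to tissue collection nor the body temperature, and they do not state whether the ventilated mice received saline. No group was ventilated at a smaller tidal volume, so the breath size cannot be told apart from ventilation itself or from the procedure around it. The sources used here do not say whether each array came from a separate mouse, and the p-values cover array-to-array spread, which may be technical.

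The heat shock response is switched on when misfolded protein frees heat shock factor 1, HSF1, to bind short repeats of GAA units in promoters of chaperone genes. It makes HSP70 and the proteins that load, empty and connect it to HSP90, and with them the chaperonin that folds proteins in mitochondria. Cirbp encodes an RNA-binding protein that mild cold induces and warmth lowers, so its transcript is known to move against those of the heat shock genes when body temperature moves.

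The promoter windows of the 10 genes are shown because most of the chaperone genes moved together between arrays and Cirbp moved against them. Each window runs from 250 bases before to 50 bases after an annotated transcription start, read 5′ to 3′ from RefSeq on the build GRCm38.p6, and all 10 genes matched by symbol, with 14 windows in all. Capitals mark heat shock elements. The 2-unit form was searched as GAANNTTC and TTCNNGAA and the 3-unit form as GAANNTTCNNGAA and TTCNNGAANNTTC, on both strands, and every 3-unit match contains overlapping 2-unit matches. Among 32851 RefSeq windows, 15.1% held the 2-unit form and 0.603% the 3-unit form. The Hspa1b window lies on chr17:34959189-34959488, minus strand, and the one of Hsph1 on chr5:149636287-149636586, minus strand. The Bag3 window is chr7:128523333-128523632, plus strand. The window of Chordc1 is chr9:18292017-18292316, plus strand, and that of Hspe1 is chr1:55087898-55088197, plus strand. Cirbp has its first window on chr10:80167589-80167888, plus strand, with no heat shock element of either form.
Hspa1b: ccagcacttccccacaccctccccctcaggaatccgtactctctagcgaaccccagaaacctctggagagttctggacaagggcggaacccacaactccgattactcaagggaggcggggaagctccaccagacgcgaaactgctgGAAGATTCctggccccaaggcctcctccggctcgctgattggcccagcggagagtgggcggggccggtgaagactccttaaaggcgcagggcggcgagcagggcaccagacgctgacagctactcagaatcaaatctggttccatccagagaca
Hsph1: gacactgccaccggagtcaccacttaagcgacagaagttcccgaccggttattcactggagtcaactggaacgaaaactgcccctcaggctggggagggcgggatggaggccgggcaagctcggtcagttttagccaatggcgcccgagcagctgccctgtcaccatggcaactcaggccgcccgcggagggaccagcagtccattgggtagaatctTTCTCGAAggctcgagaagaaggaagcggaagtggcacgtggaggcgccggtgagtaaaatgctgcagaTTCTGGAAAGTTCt
Bag3: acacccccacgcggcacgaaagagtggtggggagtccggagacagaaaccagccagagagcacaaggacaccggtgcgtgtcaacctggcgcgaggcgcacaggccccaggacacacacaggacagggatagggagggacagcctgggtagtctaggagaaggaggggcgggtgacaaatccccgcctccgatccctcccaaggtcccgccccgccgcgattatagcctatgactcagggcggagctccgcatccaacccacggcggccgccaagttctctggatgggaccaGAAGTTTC
Chordc1: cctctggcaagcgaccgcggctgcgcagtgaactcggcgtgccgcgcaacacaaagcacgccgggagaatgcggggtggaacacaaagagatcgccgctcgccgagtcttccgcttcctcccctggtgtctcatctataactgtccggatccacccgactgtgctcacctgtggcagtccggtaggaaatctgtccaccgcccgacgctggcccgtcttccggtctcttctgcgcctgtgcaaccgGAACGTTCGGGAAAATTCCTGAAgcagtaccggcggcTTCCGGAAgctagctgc
Hspe1: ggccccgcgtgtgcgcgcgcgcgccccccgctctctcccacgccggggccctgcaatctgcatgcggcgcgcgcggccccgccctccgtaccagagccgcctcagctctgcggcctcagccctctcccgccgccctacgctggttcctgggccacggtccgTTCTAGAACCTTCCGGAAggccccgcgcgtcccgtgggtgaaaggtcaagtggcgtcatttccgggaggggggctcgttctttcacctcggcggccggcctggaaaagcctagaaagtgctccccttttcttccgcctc
Cirbp: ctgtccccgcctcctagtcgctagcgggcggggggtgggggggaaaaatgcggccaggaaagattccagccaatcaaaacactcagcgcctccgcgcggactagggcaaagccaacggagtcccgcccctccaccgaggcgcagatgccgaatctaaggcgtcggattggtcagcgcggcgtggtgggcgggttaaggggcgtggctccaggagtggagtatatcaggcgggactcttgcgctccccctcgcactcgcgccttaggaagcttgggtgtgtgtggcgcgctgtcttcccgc

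A 2-unit element was found in at least 1 window of 7 of the 10 genes, and the 3-unit form in 4 of them, Hsph1, Chordc1, Hspe1 and Hspd1. Chordc1 had 5 overlapping or neighbouring 2-unit matches and 3 matches to the 3-unit form, the first starting 4 bases before the annotated start. Neither form was in the windows of Dnajb1, Stip1 or Cirbp, which says only that these letters are absent there. CCAAT was found in at least 1 window of 7 of the 10 genes, and TATAAA in 1, Stip1. Of all RefSeq windows 37.4% held CCAAT and 13.6% TATAAA. For all these motifs the counts are by gene, some with more than 1 window, and the shares are by window. The counts and shares therefore do not compare directly. Hspa1a and Hspa1b are neighbouring near-identical copies, and their windows differed at 4 of 300 bases, with the same element at the same place. Hspe1 and Hspd1 lie head to head on opposite strands, and the Hspe1 window shares 285 bases with the second window of Hspd1, so the elements printed for Hspe1 are also those of Hspd1. A match is a description of sequence and was not tied to binding of any factor.

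**Figure D1:**
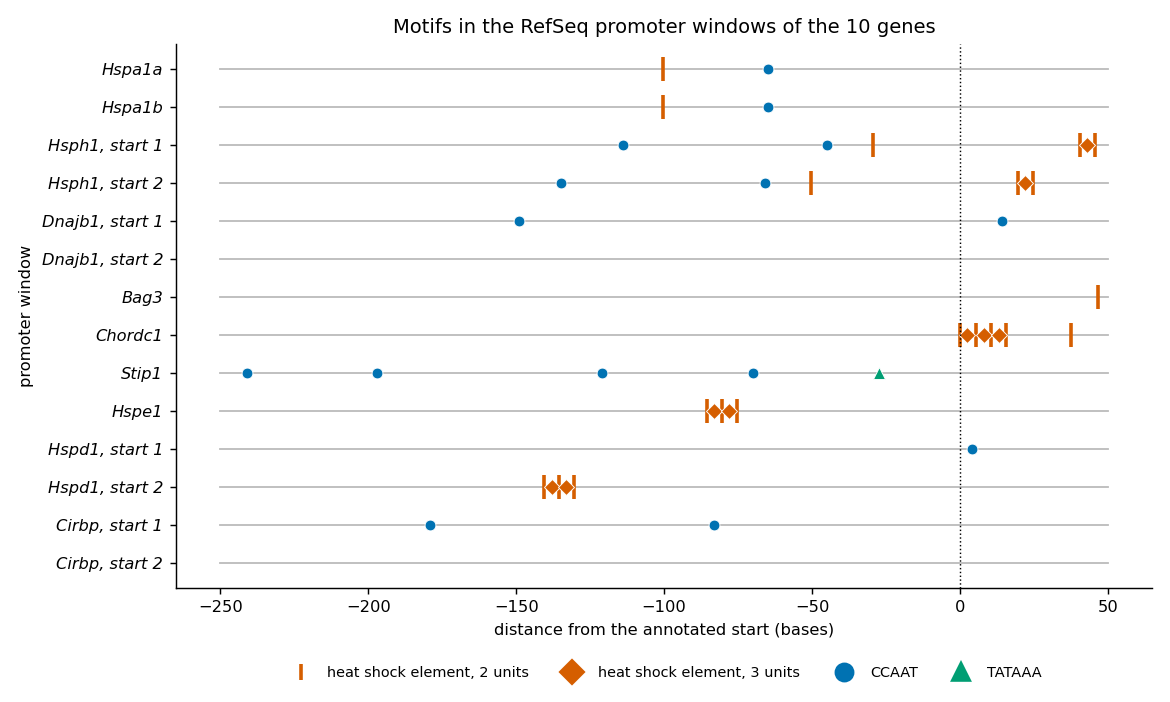
Motifs in the 14 promoter windows of the 10 genes, 1 row per window, against the distance in bases from the annotated start (dotted line). Orange bars mark the centres of 2-unit heat shock elements, orange diamonds the 3-unit form, blue circles CCAAT and the green triangle TATAAA; Chordc1 has 3 diamonds, Hspe1 and the second start of Hspd1 have 2 each, and both Cirbp windows have no heat shock element.

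The arrays were alike in scale, with medians of 7.0 to 7.07 and correlations of 0.983 to 0.997 within groups. The defining alveolar genes were strongly expressed, with the surfactant gene Sftpc between 14.76 and 14.97 in all 12 arrays. The array of ventilation replicate 2 stood apart in the genes described here. It held the highest level of 15.5% of all 12921 genes and the lowest of 24.7%. It also held the highest level of all 9 chaperone genes and the lowest of Cirbp. Because the genes were chosen for spread within groups, their extreme values in this array are partly set by the choice. Results that rest on this array are therefore given with and without it. That array was singled out after its values were seen, although leaving out each array in turn had been planned.

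Hspa1a and Hspa1b encode the stress-inducible HSP70 proteins, which bind unfolded stretches of other proteins. Hspa1a read 11.57, 7.89 and 9.17 in rhPBEF lungs, 12.57, 14.06 and 10.14 in ventilated lungs, 11.87, 11.47 and 8.35 after rhPBEF plus ventilation, and 12.04, 11.20 and 12.86 in control lungs. Hspa1b read 12.69, 9.29 and 10.59 with rhPBEF, 13.56, 14.37 and 11.53 with ventilation, 12.99, 12.99 and 9.61 with both, and 13.29, 13.15 and 13.91 in control. Both genes were lowest in rhPBEF replicate 2, and replicate 3 was the lowest array of the ventilation group and of the combined group. For Hspa1a 1 rhPBEF array overlapped the control range, whereas all 3 rhPBEF arrays of Hspa1b lay below every control array. From lowest to highest array Hspa1a spanned 71.8-fold and Hspa1b 33.8-fold. The probe sets of the copies can share signal, and with r = 0.982 over the 12 arrays and 0.988 without ventilation replicate 2 their values cannot be counted as separate observations.

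**Figure D2:**
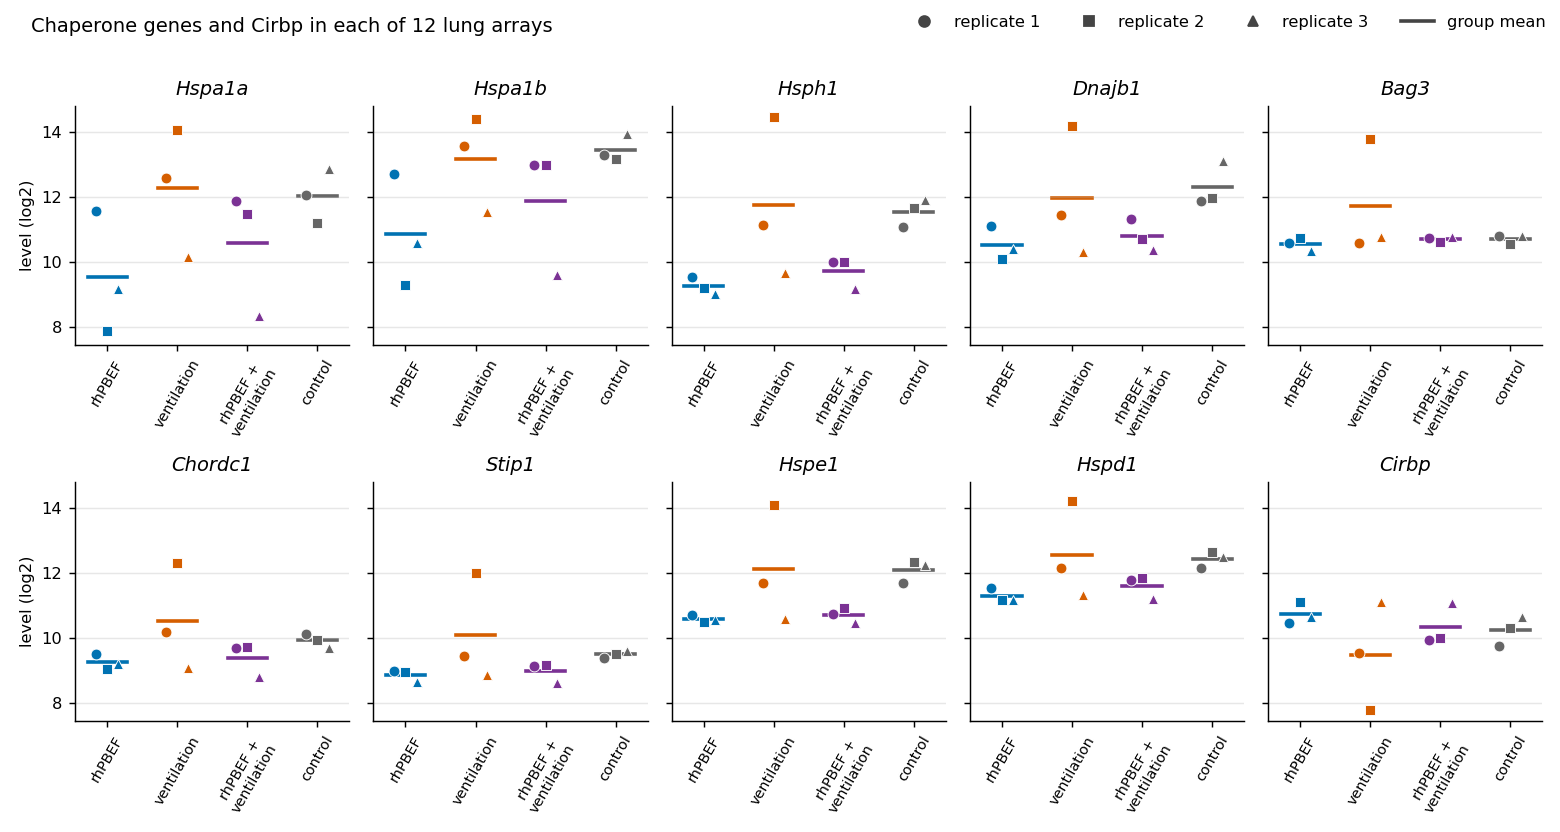
Log2 level of each of the 10 genes in every array, by group, with circles, squares and triangles for replicates 1, 2 and 3 and a bar for the group mean. Ventilation replicate 2 (orange square) is the highest array for the 9 chaperone genes and the lowest for Cirbp, and ventilation replicate 3 (orange triangle) lies below the control mean in 8 of the 9, with Bag3 the exception.

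Hsph1, an HSP110 protein that releases nucleotide from HSP70, read 9.54, 9.20 and 9.02 in rhPBEF lungs, 11.12, 14.45 and 9.66 in ventilated lungs, 9.986, 9.999 and 9.16 after both, and 11.06, 11.65 and 11.89 in control lungs. Its rhPBEF and combined groups each lay wholly below control, while the 3 ventilated arrays lay on both sides of it. Dnajb1, an HSP40 protein that hands clients to HSP70 and stimulates its ATPase, read 11.10, 10.10 and 10.39 with rhPBEF, 11.44, 14.16 and 10.31 with ventilation, 11.31, 10.72 and 10.36 with both, and 11.86, 11.95 and 13.09 in control. Every array of the rhPBEF and combined groups lay below every control array. Dnajb1's control group was itself uneven, since replicate 3 exceeded the other control arrays by more than 1 log2 unit.

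Bag3 connects HSP70 to small heat shock proteins and to autophagy. It read 10.57, 10.73 and 10.32 in rhPBEF lungs, 10.59, 13.78 and 10.76 in ventilated lungs, 10.75, 10.61 and 10.77 after both, and 10.79, 10.56 and 10.79 in control lungs. Of its 12 arrays 11 lay within 0.47 log2 units of each other, and ventilation replicate 2 stood 3.10 above the mean of the other ventilated arrays. Without that array the pooled SD within groups of Bag3 was at the 59.8th percentile of all genes tested, against the 99.7th with it.

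Chordc1 and Stip1 work with HSP90, the first as a co-chaperone and the second as the scaffold that joins it to HSP70. Chordc1 read 9.51, 9.04 and 9.22 in rhPBEF lungs, 10.17, 12.31 and 9.07 in ventilated lungs, 9.69, 9.72 and 8.79 after both, and 10.13, 9.95 and 9.70 in control lungs. Stip1 read 8.98, 8.94 and 8.64 with rhPBEF, 9.45, 12.00 and 8.85 with ventilation, 9.14, 9.18 and 8.64 with both, and 9.40, 9.52 and 9.62 in control. In both genes every rhPBEF array was below every control array, and the combined group was wholly below control for Stip1 but overlapped it for Chordc1.

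Hspd1 and Hspe1 encode HSP60 and its lid HSP10, the chaperonin of mitochondria. Hspe1 read 10.70, 10.51 and 10.57 in rhPBEF lungs, 11.69, 14.09 and 10.57 in ventilated lungs, 10.74, 10.91 and 10.48 after both, and 11.68, 12.34 and 12.24 in control lungs. Hspd1 read 11.54, 11.16 and 11.17 with rhPBEF, 12.17, 14.20 and 11.32 with ventilation, 11.77, 11.84 and 11.20 with both, and 12.14, 12.66 and 12.48 in control. Both rhPBEF-treated groups were below every control array for both genes. The rhPBEF arrays of Hspe1 were close together at 10.59 ± 0.10, against 12.09 ± 0.35 in control (SD, n = 3 each). Over the 12 arrays the chaperonin genes correlated at 0.984, and at 0.96 without ventilation replicate 2.

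Cirbp read 10.45, 11.11 and 10.64 in rhPBEF lungs, 9.55, 7.79 and 11.11 in ventilated lungs, 9.95, 10.01 and 11.08 after both, and 9.75, 10.32 and 10.66 in control lungs. The groups overlapped in every comparison. Its lowest array, ventilation replicate 2, was 2.45 below the control mean, and its highest, ventilation replicate 3, was 0.86 above it and level with rhPBEF replicate 2. Its range was 3.32 log2 units, and 1.55 without ventilation replicate 2.

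Across arrays Cirbp ran against the chaperone genes. The mean of the 9 chaperone genes, each centred and scaled to unit SD, was 2.38 in ventilation replicate 2, between -0.96 and 0.62 in the other 11 arrays, and Cirbp correlated with it at r = -0.89 and rho = -0.685 (n = 12). Without ventilation replicate 2 the values were -0.637 and -0.527 (n = 11). Without the 2 arrays farthest from the median score, ventilation replicate 2 and rhPBEF replicate 2, they were -0.579 and -0.455 (n = 10). As deviations from group means, r in the same sets of arrays was -0.915, -0.725 and -0.713. The strength of the relation rested in large part on those arrays, mainly ventilation replicate 2, while its sign did not. Between Cirbp and single chaperone genes r was -0.969 for Chordc1 and -0.906 without ventilation replicate 2. For Bag3 it was -0.799, and 0.133 without that array. The other chaperone genes had r of -0.891 to -0.71, and of -0.752 to -0.441 without it. These points share the scaling of their array and were chosen with these values known, so no p is given.

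**Figure D3:**
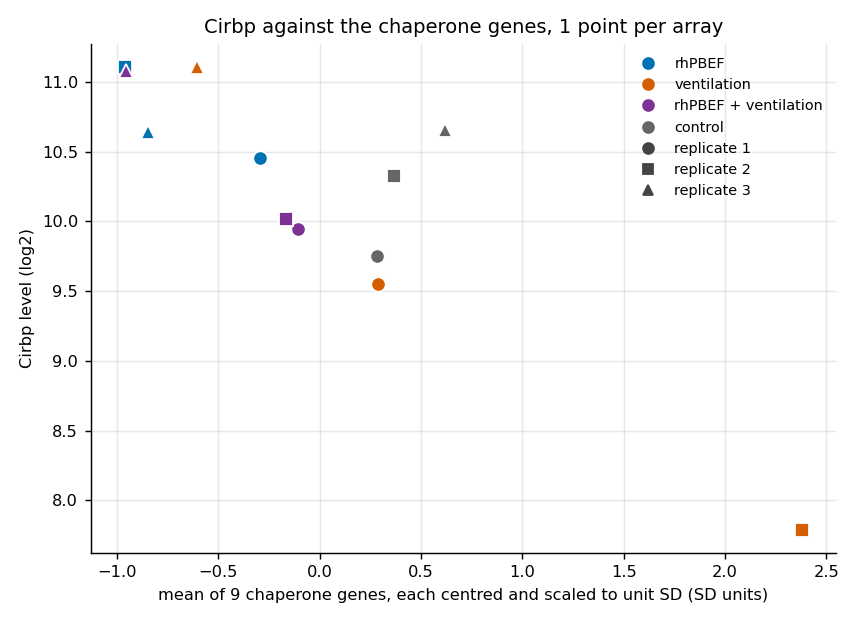
Log2 level of Cirbp (vertical) against the mean of the 9 chaperone genes, each centred and scaled to unit SD (horizontal, SD units), 1 point per array, with colours for groups and shapes for replicates. Ventilation replicate 2 lies alone at 2.38 and 7.79, and the other 11 arrays run between -0.96 and 0.62 on the chaperone axis, with r = -0.637 among them.

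Among the 9 chaperone genes the 36 pairs correlated at 0.387 to 0.992 with a median of 0.852. Without ventilation replicate 2 they ran from -0.059 to 0.988 with a median of 0.808, and the lowest of these pairs joined Bag3 and Chordc1. Bag3 correlated with Hsph1 at 0.789 with that array and 0.22 without it. Hsph1, Hspe1 and Hspd1 correlated at 0.96 to 0.992 with and without it. Where a gene had several probe sets they behaved alike: the 2 further probe sets of Hspa1b correlated with the main one at 0.998 and 0.999, and those of Hsph1, Dnajb1 and Hspe1 at 0.998, 0.992 and 0.996.

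Lungs given rhPBEF without ventilation were compared with control lungs first. All 9 chaperone genes had a lower mean in rhPBEF lungs than in control lungs and Cirbp a higher one, but 0 of the 10 passed a limma adjusted p of 0.05 over all genes, where 1.22% of genes passed. An unadjusted p under 0.05 was reached by 4 of the 10, Hspa1b, Hsph1, Dnajb1 and Hspe1, against 18.3% of all genes. The median difference of the 9 was -1.50 on the log2 scale and that of all genes -0.07. For 7 of the 9 every rhPBEF array lay below every control array, a pattern found in that direction for 24.0% of all genes. Because the genes were chosen for spread within groups, and that spread is the error of the test, this count of 0 is partly set by the choice.

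The largest difference among the 10 was that of Hspa1b, at 10.86 ± 1.71 with rhPBEF against 13.45 ± 0.41 in control (SD, n = 3 each), or -2.59 ± 1.05 (SE, adjusted p = 0.227), a level 6.03-fold below control. Hspa1a stood at -2.49 ± 1.20 (adjusted p = 0.296). Hsph1 averaged 9.26 ± 0.26 with rhPBEF and 11.54 ± 0.43 in control, a difference of -2.28 ± 0.89 (SE, adjusted p = 0.215), or 4.86-fold. With ventilation replicate 2 out of the shared estimate of spread, the same difference of Hsph1 had an SE of 0.37 and an adjusted p of 0.016. Hspe1, at -1.50, and Hspd1, at -1.14, then also passed (adjusted p = 0.0231 and 0.0461). That made 3 of 10 lower, against 0.735% of all genes in that direction and 2.05% in either. Ventilation replicate 2 had widened the spread within groups of most of the 10 genes, for which they were chosen. The contrast with all genes is therefore also partly set by the choice. Dnajb1 at -1.77 and Stip1 at -0.66 did not pass without that array (adjusted p = 0.0615 and 0.0938). Chordc1 stood at -0.67, Bag3 at -0.17 and Cirbp at 0.49, with adjusted p of 0.598, 0.918 and 0.736 over the 12 arrays. When only the rhPBEF and control arrays entered the fit, 5 of the 10 were lower, against 1.93% of all genes in that direction. These were Hsph1, Dnajb1, Stip1, Hspe1 and Hspd1 (adjusted p = 0.00192 to 0.0413). That fit also left out ventilation replicate 2, so the same limit holds. In bulk tissue fewer cells of a type and less RNA per cell cannot be told apart.

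**Figure D4:**
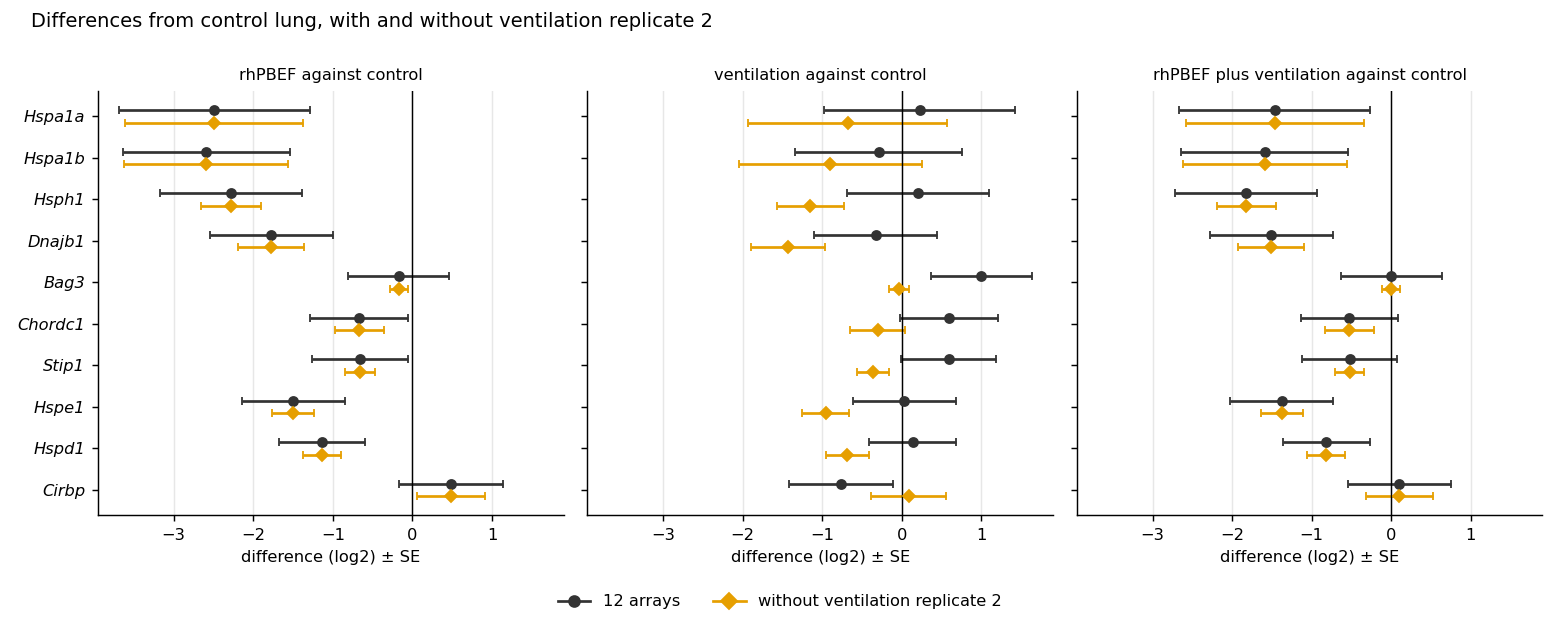
Difference from control (log2, mean and SE) for each of the 10 genes in rhPBEF, ventilation and rhPBEF plus ventilation lungs, with all 12 arrays (black circles) and without ventilation replicate 2 (yellow diamonds). In both panels with rhPBEF the points stay in place and the error bars of most genes shorten without that array, while in the ventilation panel all 9 chaperone genes are negative without it, against 2 of 9 with it.

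Ventilation without rhPBEF was set against control next. None of the 10 genes passed, against 0.00774% of all genes, and 0 of the 10 reached an unadjusted p under 0.05, against 15.5%. The spread for which the genes were chosen is the error of this test too, so these counts are partly set by the choice. The means hid arrays that lay on opposite sides of control. Bag3 had the largest positive difference, at 11.71 ± 1.79 with ventilation and 10.71 ± 0.14 in control (SD, n = 3 each), or 0.9995 ± 0.63 (SE, adjusted p = 0.451), and without ventilation replicate 2 it stood at -0.03. Hsph1 stood at 0.21 ± 0.89 (adjusted p = 0.925), and at -1.15 ± 0.42 without that array (adjusted p = 0.387). Dnajb1 stood at -0.33, and at -1.43 without it (adjusted p = 0.342).

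Over the 9 chaperone genes the median difference was 0.21, with 7 positive, against -0.04 for all genes. Without ventilation replicate 2 the median was -0.68 with all 9 negative, against -0.02 for all genes, and still 0 of 10 passed, against 0.0387%. Relative to the control mean, ventilation replicate 3 stood at -0.66 for Stip1, -1.88 for Hsph1 and -1.99 for Dnajb1, and at 0.05 for Bag3. Cirbp stood at -0.76 ± 0.65 (SE, adjusted p = 0.577), and at 0.09 without replicate 2.

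After rhPBEF plus ventilation all 9 chaperone genes again had lower means than control, with a median of -1.38 against -0.06 for all genes. None of the 10 passed, against 8.79% of all genes, and 0 reached an unadjusted p under 0.05, against 27.5%. These counts of 0 are partly set by the choice of genes for their spread within groups. For 6 of the 9 the combined group lay wholly below control, against 24.4% of all genes. Hsph1 averaged 9.71 ± 0.48 with both treatments and 11.54 ± 0.43 in control (SD, n = 3 each), a difference of -1.82 ± 0.89 (SE, adjusted p = 0.211). Hspe1 averaged 10.71 ± 0.22 with both and 12.09 ± 0.35 in control, or -1.38 ± 0.65 (SE, adjusted p = 0.194). Without ventilation replicate 2 the differences of Hsph1, Dnajb1, Hspe1 and Hspd1 passed (adjusted p = 0.0178, 0.0414, 0.0148 and 0.0499). That made 4 of 10 lower, against 8.61% of all genes in that direction and 14.0% in either. Here too the contrast is partly set by the choice of genes for their spread. Cirbp stood at 0.10 and Bag3 at -0.0016, with adjusted p of 0.935 and 0.999. This comparison and the first share their control arrays, so the likeness of their values is not a separate result.

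Setting the combined treatment against each single one gave no call. Here and in the interaction below, the counts of 0 of the 10 are partly set by the choice of genes for their spread within groups. Against ventilation 0 of the 10 passed, against 0.325% of all genes, and 1, Hsph1, reached an unadjusted p under 0.05, against 9.98%. The median of the 9 chaperone genes was -1.18, and -0.22 without ventilation replicate 2. Against rhPBEF 0 of the 10 passed or reached an unadjusted p under 0.05 (adjusted p = 0.999 for each), against 0.00774% and 3.77% of all genes, and the median was 0.26 with all 9 positive. By group mean, all 9 were lowest with rhPBEF and next lowest with both, and the arrays of those neighbouring groups overlapped for every gene, as did those of ventilation and control. The interaction asked whether the effect of ventilation differed with rhPBEF, and 0 of the 10 genes passed or reached an unadjusted p under 0.05 (adjusted p = 0.998 for each), while 0 of all genes passed and 2.23% reached it unadjusted. Its median over the 9 chaperone genes was 0.18, and 1.07 without ventilation replicate 2. Without that array 0 of the 10 passed (adjusted p = 1 for each), while 4, Hsph1, Dnajb1, Hspe1 and Hspd1, reached an unadjusted p under 0.05, against 2.30% of all genes. That count of 4 is also partly set by the choice of genes for their spread.

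Other genes of the chaperone system were taken from lists written from general knowledge, with earlier results of these data known. Of 24 further heat shock chaperones and HSF1 targets 19 were tested. In rhPBEF lungs 0 passed, against 1.22% of all genes, with a median of -0.54. Without ventilation replicate 2 there were 6 lower and 1 higher, against 0.735% of all genes lower and 2.05% in either direction. Dnaja1, an HSP40 protein, stood at -1.22 ± 0.47 (SE, adjusted p = 0.207, and 0.0421 without that array), and Dnaja4, of the same family, at -1.06 ± 0.78 (adjusted p = 0.501, and 0.0102 without it). Gem, a small GTPase and not a chaperone, stood at 1.63 ± 0.37 (adjusted p = 0.0646, and 0.00837 without it). With both treatments Gem rose by 2.32 ± 0.37 (adjusted p = 0.00815) and Dnajb5 by 0.44 ± 0.12 (adjusted p = 0.0459). These 2 of 19 are a share near the 8.79% of all genes. There were 8 lower and 2 higher without ventilation replicate 2, against 8.61% of all genes lower and 14.0% in either direction. Ventilation gave 0 calls with or without that array, against 0.00774% and 0.0387% of all genes. In ventilation replicate 2 the list mean stood 1.46 above control, 17 of 19 were at their highest of the 12 arrays, and the other 11 arrays ran from -0.45 to 0.02. That array was singled out after its values were seen, so the counts of this list without it are partly set by that choice.

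All 8 subunits of TRiC, the chaperonin of the cytosol, were also at their highest in ventilation replicate 2, where their mean stood 0.67 above control, against -0.22 to 0.07 in the other arrays. None of the 8 passed in any comparison with control over the 12 arrays. Of all genes 1.22% passed with rhPBEF, 0.00774% with ventilation and 8.79% with both. Cct7 was lower with both treatments without ventilation replicate 2 (-0.35, adjusted p = 0.0325), which is 1 of 8 where 8.61% of all genes were lower. Of 11 tested heat shock factors, BAG proteins and co-factors, Cdc37, which brings kinases to HSP90, was the only one past, falling by 0.42 ± 0.09 with both treatments (SE, adjusted p = 0.0276). Its 3 combined arrays read 10.88, 10.86 and 10.66, against 11.20, 11.20 and 11.25 in control. Among 8 mitochondrial chaperones beside HSP60 and HSP10 only Trap1, the HSP90 of mitochondria, passed, falling by 0.27 ± 0.07 with both treatments (SE, adjusted p = 0.0488). With 8.79% of all genes past in this comparison, 1 of 11 and 1 of 8 are near the background and say nothing particular of these lists. In ventilation replicate 2 these lists had means of 0.06 and 0.04, but their genes went both ways. Of the 11, 3 were at their highest there and 3 at their lowest, and of the 8, 2 and 2. Of all genes 15.5% and 24.7% were so. St13 read 11.79 and Hspa9 11.26, against at most 10.83 and 10.71 in the other arrays. Stub1 read 10.68 and Trap1 9.18, against at least 10.87 and 9.19. None of 16 chaperones of the endoplasmic reticulum passed in any comparison with control over the 12 arrays, against the same shares of all genes as for TRiC. Without ventilation replicate 2, 1 of the 16, Sdf2l1, was lower with both treatments (-0.36, adjusted p = 0.0472), where 8.61% of all genes were lower. Their mean in ventilation replicate 2 was 0.19, with 7 at their highest there and 0 at their lowest. Cold-inducible genes and relatives of Cirbp had 6 of 9 members tested and 0 past, against the same shares. In lists this short, counts of 0 are near those shares. Rbm3, another cold-induced RNA-binding gene, was not among the tested genes.

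**Figure D5:**
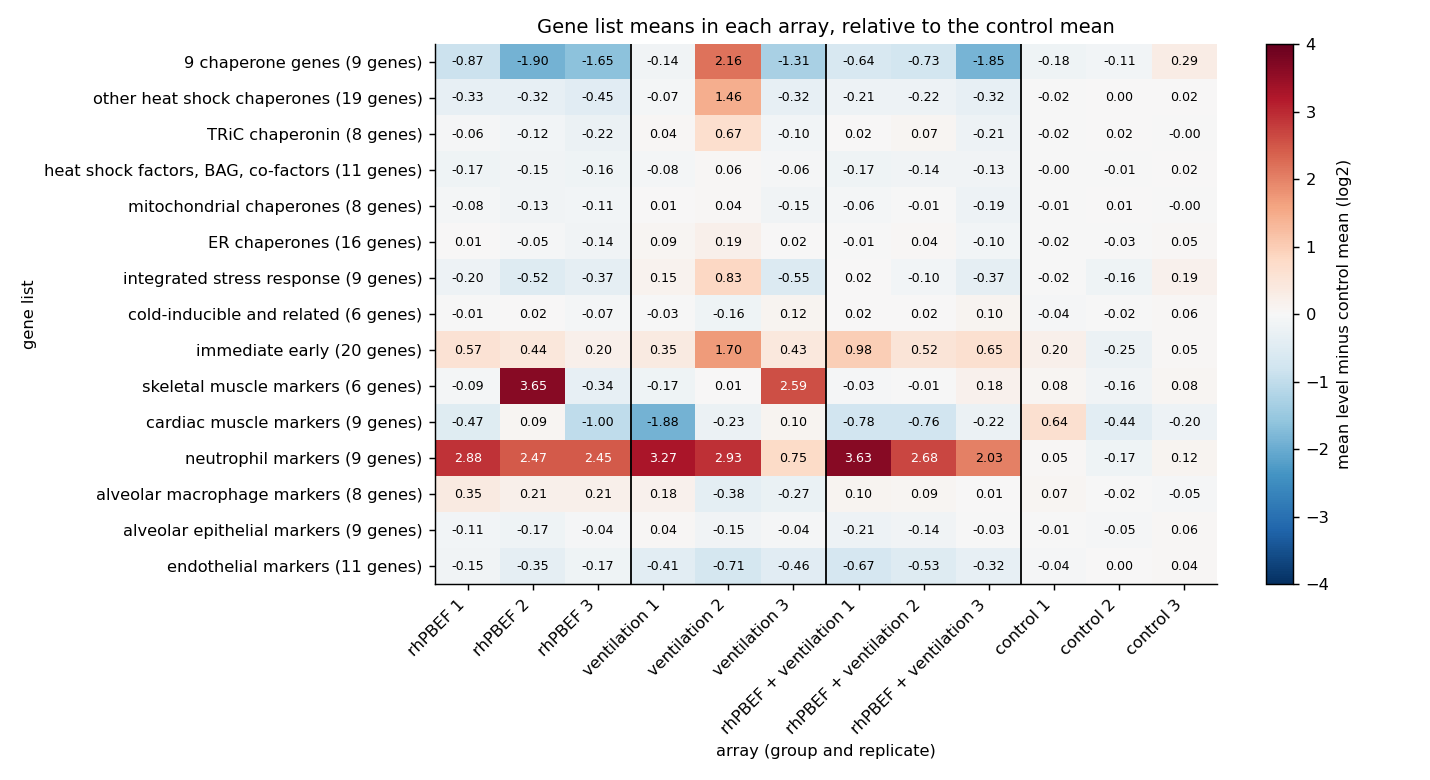
Mean log2 level of each gene list in every array minus its control mean, 1 row per list and 1 column per array, with the values printed. The column of ventilation replicate 2 holds 2.16 for the 9 chaperone genes, 1.46 for other heat shock chaperones and 1.70 for immediate early genes, and the 2 arrays with high skeletal muscle markers are rhPBEF replicate 2 at 3.65 and ventilation replicate 3 at 2.59.

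Levels of other lists in the same arrays are given here, and their part in the chaperone values was not tested. Immediate early genes, which cells switch on within minutes of a stimulus, stood 1.70 above control in ventilation replicate 2 and between -0.25 and 0.98 in the other 11 arrays, with 12 of 20 at their highest there. Genes of the integrated stress response had a mean of 0.83 in that array and -0.55 in ventilation replicate 3, with 8 of 9 at their highest in replicate 2. Skeletal muscle markers, 6 of 12 tested, had means of -0.34 to 3.65 in the rhPBEF group, -0.17 to 2.59 in the ventilation group, -0.03 to 0.18 in the combined group and -0.16 to 0.08 in control. The arrays at 3.65 and 2.59, rhPBEF replicate 2 and ventilation replicate 3, held the lowest and the fourth lowest levels of Hspa1a and of Hspa1b, while the array with the second lowest, rhPBEF plus ventilation replicate 3, stood at 0.18. Neutrophil markers, 9 of 11 tested, stood at 2.45 to 2.88 with rhPBEF, 0.75 to 3.27 with ventilation, 2.03 to 3.63 with both and -0.17 to 0.12 in control, and ventilation replicate 3 was the array at 0.75. Cardiac muscle markers, 9 of 10 tested, ran from -1.003 to 0.09 with rhPBEF, -1.88 to 0.10 with ventilation, -0.78 to -0.22 with both and -0.44 to 0.64 in control. Endothelial markers, all 11 tested, ran from -0.35 to -0.15 with rhPBEF, -0.71 to -0.41 with ventilation, -0.67 to -0.32 with both and -0.04 to 0.04 in control. Ventilation replicate 2 had the lowest mean, with 4 of 11 genes at their lowest there and 1, Kdr, at its highest. That mean leaned on Tmem100, which read 9.64 there, against 11.54 to 12.74 in the other arrays. With both treatments the endothelial median was -0.56 and 4 of 11 fell, against 8.79% of all genes called in either direction. These were Eng, Ramp2, Sox17 and Sox18 (adjusted p = 0.00499, 0.0288, 0.0304 and 0.0194). Without ventilation replicate 2, 5 fell, against 8.61% of all genes lower and 14.0% in either direction. Alveolar macrophage markers, 8 of 10 tested, had list means between -0.38 and 0.35 in the 12 arrays. Single genes behind those means moved in opposite directions. Marco and Plet1 rose by 1.93 and 1.13 with rhPBEF (adjusted p = 0.0133 and 0.0104), against 1.22% of all genes called. With both treatments they rose by 1.65 and 1.09 and Siglecf fell by 1.03 (adjusted p = 0.0147, 0.00767 and 0.029). That is 2 of 8 higher and 1 lower, against 8.79% of all genes called. Alveolar epithelial markers had list means between -0.21 and 0.06. No level in the table is 0.

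The genes most like the chaperone set were sought among the 6220 genes whose spread within groups was above the median, as deviations from group means over the 12 arrays. Dnaja1 came first at r = 0.988, followed by the TRiC subunit Cct5 at 0.985, Mrps6 at 0.977, Aars at 0.972, Rinl at 0.971, Snx3 at 0.966, Hsp90aa1 at 0.965 and Cct7 at 0.963. Without ventilation replicate 2 these ran from 0.789 for Snx3 to 0.967 for Dnaja1. The most opposed were Slc36a4 at -0.978, Dnajc25 at -0.977, Rtf1 at -0.97, Ebag9 at -0.966 and Sfmbt1 at -0.965. Closest to Cirbp were Tubgcp2 at 0.99, Hddc2 at 0.982, Scyl3 and Hunk at 0.981 each and Zbtb22 at 0.976, and these kept 0.936 to 0.98 without ventilation replicate 2. In ventilation replicate 2 Dnaja1 read 14.39, against 11.85 to 13.33 in the other arrays, and Tubgcp2 read 8.14, against 8.54 to 8.93.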

How the data were processed

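Lung RNA of mice was measured on 12 Affymetrix arrays, whose titles give 4 groups of 3. Descriptions naming all samples control animals contradict the titles and were set aside. Values were used as deposited by the authors, on a log2 scale and already normalised. MAS5 and GCRMA are named, per the submitters' processing notes, with no role or version. How background was corrected is not given in the sources used here, nor is the normalisation method, and no detection calls were used. Values ran from 2.99 to 15.02, and 0 array columns were identical. Precision is limited by how few arrays there were.

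Of 45101 probe sets 64 were controls and left out. Probe sets with a mean above the 40th percentile, a level of 6.42, were kept, which left 27022. Symbols came from the platform annotation: 34945 probe sets carried 1 symbol, 932 several and 9160 none, and only those with 1 were used. Where a gene had several probe sets, the one of highest mean stood for it. The 12921 genes were tested in R 4.3.3 by limma (version 3.58.1), fitting a mean for each group with lmFit and moderating variances with eBayes, which left 8 residual degrees of freedom and added 2.99 prior ones. Benjamini-Hochberg adjustment covered all genes of a comparison, and calls needed an adjusted p under 0.05. Without ventilation replicate 2 that group had 2 arrays.

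The 10 genes, the 15 further gene lists (179 genes, 157 tested) and the tests were chosen with earlier results of these data known. Named were all 10 genes, up to 3 genes per list and comparison past the threshold, up to 3 with the largest change in a described list, and the genes of highest and lowest correlation with the set. Promoter windows and their coordinates came from RefSeq on GRCm38.p6. The build behind the probe annotation was not known, so no other coordinates are printed. A planned comparison of protein sequences was not run. The steps were tested on simulated data. Alternatives changed the filter, normalisation, variance model, array weights, probe set rule, replicate block and arrays used. Python 3.11.15 and matplotlib 3.10.9 drew the figures.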

Additional observations from a re-analysis of the deposited data

How the results depend on the processing

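Under 23 alternative settings per comparison (22 for the interaction), 1370 single-gene values of the 10 genes were recomputed: 1295 kept their sign and their side of the threshold, 22 kept their sign and newly passed, 0 stopped passing and 53 changed sign. None of the sign changes was in rhPBEF against control, 20 were in ventilation against control, 7 in rhPBEF plus ventilation against control, 24 in the interaction, and 1 each in rhPBEF plus ventilation against ventilation and against rhPBEF. Ventilation replicate 2 was chosen for attention after its values were seen. The cause of each change was not tested.

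For rhPBEF against control 0 of the 10 genes passed with all arrays (1.22% of all genes), 0 to 3 when 1 array was left out (3 without ventilation replicate 2, 2.05%), 4 with array weights (13.4%) and 5 with only the groups compared (4.92%). For rhPBEF plus ventilation against control the counts were 0 (8.79%), 0 to 4 (4 without ventilation replicate 2, 14.0%), 4 (49.5%) and 2 (8.73%). The other comparisons had 0 throughout. These counts, with or without ventilation replicate 2, are partly set by the choice of genes for their spread. Array weights were estimated gene by gene, a choice made after the default estimate had been run and had not converged: it gave 1 array a very large weight, and its counts were seen first. Over 7 stress and chaperone lists with 77 tested genes, rhPBEF against control had 0 past, against 1.22% of all genes. Array weights gave 11 (14.3%, against 13.4% of all genes) and the replicate block 1 (1.3%, against 1.44%). With only the groups compared there were 15 (19.5%, against 4.92%). Without both arrays high in skeletal muscle markers there was 1 (1.3%, against 0.534%). Leaving out 1 array gave 0 to 7, with 7 without ventilation replicate 2 (9.09%, against 2.05%). For rhPBEF plus ventilation against control 4 passed (5.19%, against 8.79% of all genes). There were 2 under no filter (2.6%, against 5.21%) and 34 under array weights (44.2%, against 49.5%). The mean of all probe sets gave 2 (2.6%, against 8.94%), and every probe set on its own 2 (2.6%, against 6.21%). With only the groups compared 14 passed (18.2%, against 8.73%). When 1 array was left out 1 to 14 passed, with 14 without ventilation replicate 2 (18.2%, against 14.0%). That array was singled out after its values were seen, so list counts from fits without it are partly set by that choice. In both comparisons with control the fits of only the groups compared also left it out. Against ventilation 0 passed, with 3 under array weights (3.9%, against 8.17%). It was 0 to 1 when 1 array was left out, with 1 without ventilation replicate 3 (1.3%, against 0.449%). Over all genes rhPBEF against control had 158 past, with 44 to 358 when 1 array was left out and 69 to 1735 under the other settings, and rhPBEF plus ventilation against control had 1136, with 152 to 2498 and 932 to 6396. The correlation of Cirbp with the chaperone mean was -0.579 without the 2 farthest arrays and -0.955 to -0.637 when 1 array was left out.

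Leaving out 1 array gave, for ventilation against control, -0.68 to 1.28 for Hspa1a, -0.90 to 0.52 for Hspa1b, -1.15 to 1.25 for Hsph1, -1.43 to 0.50 for Dnajb1, -0.0347 to 1.56 for Bag3, -0.30 to 1.31 for Chordc1, -0.36 to 1.21 for Stip1, -0.96 to 0.80 for Hspe1, -0.68 to 0.76 for Hspd1 and -1.57 to 0.0855 for Cirbp. For rhPBEF plus ventilation against control it gave -0.0797 to 0.0484 for Bag3 and -0.26 to 0.31 for Cirbp. Bag3 ran from -1.56 to 0.0332 against ventilation, and Chordc1 from -0.017 to 0.45 against rhPBEF. The interaction ran from -0.26 to 1.90 for Hspa1a, 0.49 to 2.42 for Hspa1b, -0.79 to 1.61 for Hsph1, -0.23 to 1.69 for Dnajb1, -1.39 to 0.21 for Bag3, -1.17 to 0.45 for Chordc1, -1.08 to 0.49 for Stip1, -0.68 to 1.07 for Hspe1, -0.44 to 1.001 for Hspd1 and -0.47 to 1.19 for Cirbp. With array weights the ventilation difference was -0.43 for Hsph1, -0.47 for Hspe1 and -0.32 for Hspd1, that of both treatments -0.11 for Cirbp, and the interaction 0.31 for Chordc1, 0.27 for Stip1 and -0.28 for Cirbp. Without the arrays high in skeletal muscle markers the ventilation difference was 0.52 for Hspa1b and 0.50 for Dnajb1, and the interaction was -1.09 for Hspa1a, -0.30 for Hspa1b, -0.82 for Hsph1, -0.45 for Dnajb1, -0.73 for Hspe1 and -0.50 for Hspd1. With each array centred on its median, Bag3 after both treatments stood at 0.0202.

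The titles give the same replicate numbers in every group. Among 18 same-numbered pairs of arrays the deviations from the group means correlated at -0.21 to 0.526, and 7 pairs exceeded 0.1, so the numbers were not taken as pairing. With the replicate block 0 of the 10 genes passed in each comparison. The planned protein comparison was not run. With 3 arrays per group and no detection calls, signal over background could not be judged.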
